A study of Mus musculus with 2 samples.

Results

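Far intergenic Olig2 peaks with the E-box motif were the 319 peaks, of the 4215 in the deposited list, that met 4 conditions. The list annotated them as intergenic, named a protein-coding gene as the nearest one, placed the peak centre more than 25 kb from that gene's transcription start site (TSS), and gave at least 1 hit of the de novo motif that holds the E-box. They made up 7.57% of the list (95% exact interval 6.79 to 8.41) and 319 of its 1002 intergenic peaks. The score of a peak was not used to choose it. The motif admits only some 8-base words, so it limits which forms of the E-box can occur, but the near intergenic and promoter peaks used for comparison had to hold it too. The list came from chromatin immunoprecipitation and sequencing (ChIP-Seq) of whole spinal cord from healthy male C57BL/6 mice of 6 weeks, with an antibody against Olig2 for the enriched chromatin and sheared chromatin without antibody as the Input control. No animal carried an engineered allele or received a treatment beyond terminal anesthesia. Cords of several mice were combined for each precipitation and the reads of 2 experiments were merged before peaks were called, so that each peak has 1 score, no replicate error and no known depth. Whole cord holds oligodendrocyte precursors, oligodendrocytes, some astrocytes and other cells, and the list cannot tell which of them gave a peak.

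Olig2 belongs to the bHLH (basic helix-loop-helix) family of transcription factors, and it specifies motor neurons and oligodendrocyte precursors in the embryonic spinal cord and stays expressed in the oligodendrocyte lineage of the adult. Proteins of this family bind as dimers to the E-box, the word CANNTG, each partner contacting 1 side of the word, so that the 2 central bases and the flanking bases differ between family members. Sites far from any TSS can be enhancers, which act on genes over long distances and not always on the nearest one.

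The peaks were 51 bp long in the mm10 (GRCm38) build. The sequences of the 10 far intergenic E-box peaks with the highest scores are given here because they show how varied the E-box was among the strongest sites. They are the plus strand of the reference, 5′ to 3′, and are named by the nearest gene. Capitals mark every CANNTG or, where the 51 bp hold none, the 8 bases of the E-box motif hit.
Nufip1, chr14:76255365-76255415: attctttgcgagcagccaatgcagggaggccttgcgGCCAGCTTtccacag
1500009L16Rik, chr10:83906943-83906993: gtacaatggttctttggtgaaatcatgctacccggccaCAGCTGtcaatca
Mvk, chr5:114489723-114489773: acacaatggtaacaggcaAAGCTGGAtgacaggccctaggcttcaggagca
Gm5294, chr5:138863725-138863775: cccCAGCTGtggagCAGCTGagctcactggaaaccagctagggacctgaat
Wnt7b, chr15:85613608-85613658: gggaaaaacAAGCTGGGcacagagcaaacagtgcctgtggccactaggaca
Kcna6, chr6:126702232-126702282: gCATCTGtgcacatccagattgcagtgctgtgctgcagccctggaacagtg
Tnrc6a, chr7:123084536-123084586: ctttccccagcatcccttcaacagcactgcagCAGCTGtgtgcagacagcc
Fgl1, chr8:41175274-41175324: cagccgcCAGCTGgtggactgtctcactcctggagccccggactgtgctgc
Sypl, chr12:33008431-33008481: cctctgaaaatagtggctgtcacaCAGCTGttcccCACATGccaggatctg
Rc3h1, chr1:160856073-160856123: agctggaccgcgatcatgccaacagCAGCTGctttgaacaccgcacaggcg

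The 10 highest scores ran from 62.6 to 88.3. The peak near Nufip1, which encodes an RNA-binding partner of the fragile X protein, had the highest at 88.3 and ranked 19 in the whole list. It was followed by 82.2 near the RIKEN gene 1500009L16Rik, 81.7 near Mvk (mevalonate kinase, of cholesterol synthesis) and 79.9 near the predicted gene Gm5294. The next scores were 71.0 near Wnt7b, a secreted Wnt ligand, 69.6 near Kcna6, a voltage-gated potassium channel subunit, and 69.6 near Tnrc6a, a scaffold of microRNA silencing. Fgl1 (67.9), Sypl (65.9) and Rc3h1 (62.6) completed the 10. The strongest sites were thus not all of 1 E-box form: 6 of them (1500009L16Rik, Gm5294, Tnrc6a, Fgl1, Sypl and Rc3h1) held the symmetric word CAGCTG, the Kcna6 peak held CATCTG, which reads CAGATG on the other strand, and those near Nufip1, Mvk and Wnt7b had a hit with an AAGCTG core, 1 base away from CAGCTG.

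A second set of sequences shows sites near genes of the oligodendrocyte and astrocyte lineages, which are described further on. All of those shown hold CAGCTG, so the set does not give the range of forms near such genes. The highest peaks of Sall3, Zfp536, Zeb2, Sall1, Nr2f2, Mal, Gjb6 and Glul, from the same gene lists, do not hold it. Capitals again mark CANNTG.
Olig2, chr16:91184395-91184445: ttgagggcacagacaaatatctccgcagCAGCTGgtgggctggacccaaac
Olig2, chr16:91192077-91192127: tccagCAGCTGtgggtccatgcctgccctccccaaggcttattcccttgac
Klf13, chr7:63965319-63965369: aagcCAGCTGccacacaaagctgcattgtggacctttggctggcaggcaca
Tcf7l2, chr19:55951594-55951644: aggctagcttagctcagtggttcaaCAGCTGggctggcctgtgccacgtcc
Tspan2, chr3:102691939-102691989: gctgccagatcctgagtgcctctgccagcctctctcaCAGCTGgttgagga
Slc1a3, chr15:8738338-8738388: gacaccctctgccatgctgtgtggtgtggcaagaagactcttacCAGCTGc

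The score of a peak rests on the pooled reads of the ChIP library against the Input. Its scale is not named in the sources used here, so scores are compared only with each other. Over the 319 far intergenic E-box peaks the score ran from 2.81 (near Btg1, an antiproliferative factor) to 88.3, with a median of 12.3 and quartiles of 7.77 and 21.4. 199 peaks (62.4%) scored at least 10 and 89 (27.9%) at least 20. For comparison, 3 other groups of peaks with a protein-coding nearest gene were taken from the same list: 281 intergenic E-box peaks up to 25 kb from the TSS (near intergenic), 120 far intergenic peaks without the E-box motif, and 481 promoter peaks with the E-box motif. Their median scores were 14.3, 10.3 and 12.3. None of the 3 differences passed the threshold in two-sided permutation tests of the median. Against near intergenic peaks the difference was -1.98 (permutation p = 0.0475, adjusted p = 0.218 over the 23 comparisons between groups of peaks), against far intergenic peaks without the motif it was 2.04 (p = 0.120, adjusted p = 0.393), and against promoter peaks it was 0 (p = 1). Among peaks with a score of at least 10 the differences from both intergenic groups had the opposite sign (0.419 and -0.349) and did not pass either.

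**Figure D1:**
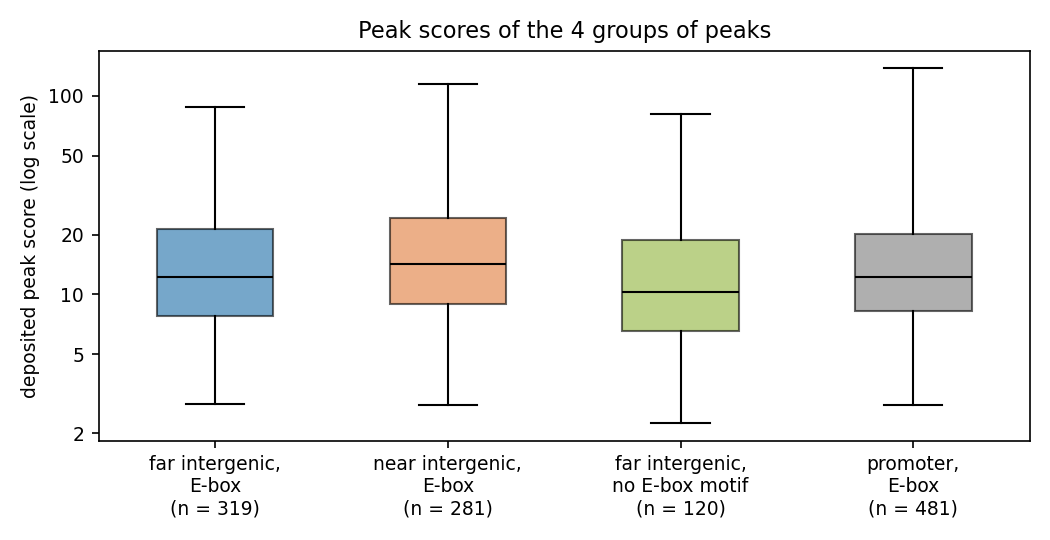
Deposited peak score (log scale) of the 319 far intergenic E-box peaks, 281 near intergenic E-box peaks, 120 far intergenic peaks without the motif and 481 promoter E-box peaks. Boxes span the quartiles with the median as a line, and whiskers reach the lowest and highest score; the boxes overlap, with medians of 12.3, 14.3, 10.3 and 12.3.

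Distance from the TSS ran from 25253 to 1798090 bp among the 319 peaks. In the class from 25 to 50 kb there were 134 peaks, from 50 to 100 kb 93, from 100 to 200 kb 54, and beyond 200 kb 38, and the median was 59115 bp. Median scores in these classes were 12.4, 13.4, 11.3 and 10.4, and the share with CAGCTG was 64.2%, 60.2%, 55.6% and 52.6%. Both are given as a description. Just inside the limit lay a peak 25253 bp upstream of Arrb1 (score 43.2) and one 25450 bp upstream of Sned1 (score 10.2), and just outside it the peaks of Mrps5 at 24974 bp (48.1) and Pvrl1 at -24987 bp (17.1), where a minus sign means upstream. Of the 319 peaks 170 lay upstream and 149 downstream of their TSS (53.3% upstream, 95% exact interval 47.7 to 58.9; two-sided exact binomial p = 0.263). When the limit was set at 10000 bp, 59.0% of 461 peaks were upstream (exact binomial p = 0.000129), and at 50000 bp 48.1% of 185 were. An intergenic annotation leaves out the body of the gene, which lies downstream of its own TSS. The even split that the binomial test assumes is thus no neutral reference here, and no preference for a side is read from these p-values.

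**Figure D2:**
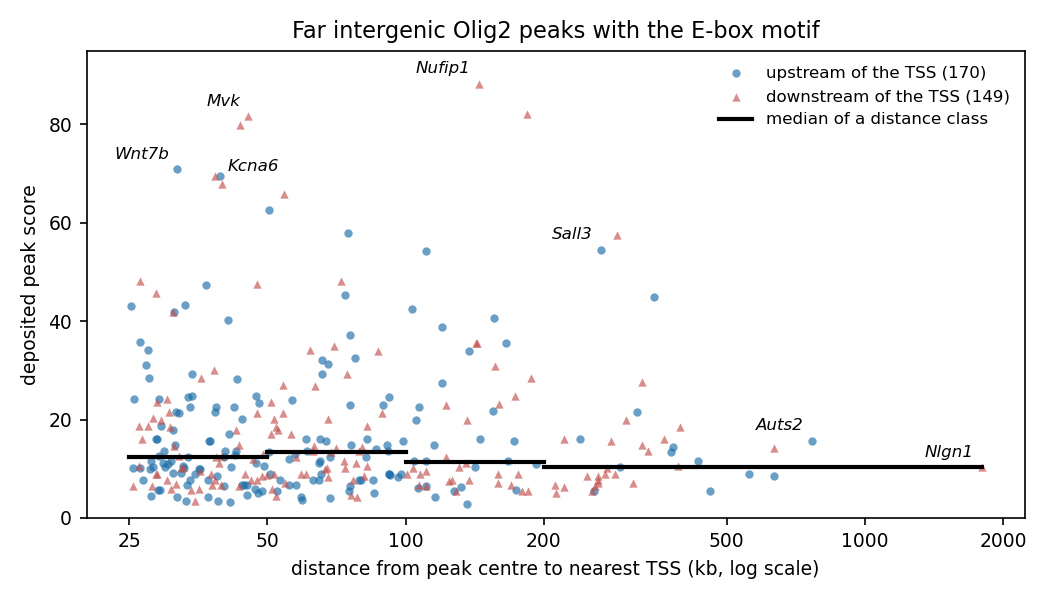
Deposited peak score of each of the 319 far intergenic E-box peaks against its distance to the nearest TSS (kb, log scale). Circles are the 170 peaks upstream of the TSS and triangles the 149 downstream; black lines are the median scores of the 4 distance classes (12.4, 13.4, 11.3 and 10.4), and high scores are seen in every class.

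The 3 peaks farthest from a TSS show what the nearest-gene label means at such distances. The farthest lay 1798090 bp from Nlgn1, a synaptic adhesion protein (chr3:24355192-24355242, score 10.3), but inside Naaladl2 in the RefSeq and GENCODE annotations. The next was 769194 bp upstream of Auts2, a neurodevelopmental gene (chr5:133311512-133311562, score 15.7), with the TSS of the gene on its other side, Castor2, at 788211 bp. The one after was 634729 bp from Cldn26, listed in RefSeq as Tmem114 (chr16:7790382-7790432, score 14.3), and had Rbfox1, a neuronal splicing factor, on its other side at 720572 bp. Over the 319 peaks, the deposited gene was the nearest curated protein-coding TSS in RefSeq for 308 (96.6%). For 140 (43.9%) the gene on the other side had its TSS at no more than 2 times the distance.

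The annotation used for the list also bears on the word intergenic. In the RefSeq annotation 95 of the 319 centres (29.8%, 24.8 to 35.1) lay inside a gene, 40 of them inside a protein-coding gene and 55 inside a long noncoding RNA gene. These counts overlap and leave some centres out. The Tnrc6a peak lay inside both Tnrc6a and a long noncoding RNA gene, and the Gm5294 peak inside a pseudogene only. In GENCODE M21, 72 did (22.6%). A TSS of any RefSeq transcript, noncoding ones included, was within 1 kb of 18 peaks (5.64%), and a GENCODE TSS within 1 kb of 20 (6.27%). The Maml3 peak, for example, was 177 bp from a RefSeq TSS and overlapped the noncoding gene Gm30074, and the Tnrc6a peak was 135 bp from a RefSeq TSS.

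The E-box itself was examined in the 51 bp. CANNTG was present in 269 of the 319 peaks (84.3%). In the other 50 the hit had another core, most often AAGCTG (36 peaks), then CAGCCG (8), CGGCTG (5), CAGACG (3) and CATCCG (1), with some peaks holding more than 1 of them. The symmetric form CAGCTG was in 192 peaks (60.2%, 54.6 to 65.6). It was in 158 of 281 near intergenic peaks (56.2%, 50.2 to 62.1) and in 185 of 481 promoter peaks (38.5%, 34.1 to 43.0). The difference from promoter peaks passed Fisher's exact test (odds ratio 2.42, 95% interval 1.81 to 3.23, adjusted exact p = 4.02e-08), and that from near intergenic peaks did not (odds ratio 1.18, 0.850 to 1.63, adjusted exact p = 0.647). A motif hit need not be a CANNTG. In the 200 bp around the centre, any CANNTG was in 96.2% of far, 93.2% of near intergenic and 75.1% of promoter peaks. The hit CAGCCGGC, which is no CANNTG, was in 1.88% of far and 7.28% of promoter peaks. Differences from promoter peaks in E-box form or number of hits thus include promoter peaks without an E-box.

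Over the 10 forms of CANNTG, none differed between far and near intergenic E-box peaks (0 of 10 called, 0%; none had p under 0.05 before adjustment either). Against promoter peaks 4 of 10 did (40%), the p-values here adjusted over the 10 forms. CAGCTG was 1. CAGATG was in 82 far peaks (25.7%) and 68 promoter peaks (14.1%, adjusted exact p = 0.000315). CACATG was in 17 (5.33%) and 6 (1.25%, adjusted exact p = 0.00238). CACGTG, the form bound by MYC and USF proteins, went the other way, with 1 far peak (0.313%) and 20 promoter peaks (4.16%, adjusted exact p = 0.00140). Promoter peaks were also richer in G and C, with a median GC fraction of 0.647 against 0.569 in far peaks (difference -0.0784, adjusted permutation p = 5.75e-05, from the smallest p that 100000 permutations can give, 1e-05), and the part of base composition in the E-box forms was not tested. Near intergenic peaks and far peaks without the motif had the same median GC as the far E-box peaks, 0.569.

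**Figure D3:**
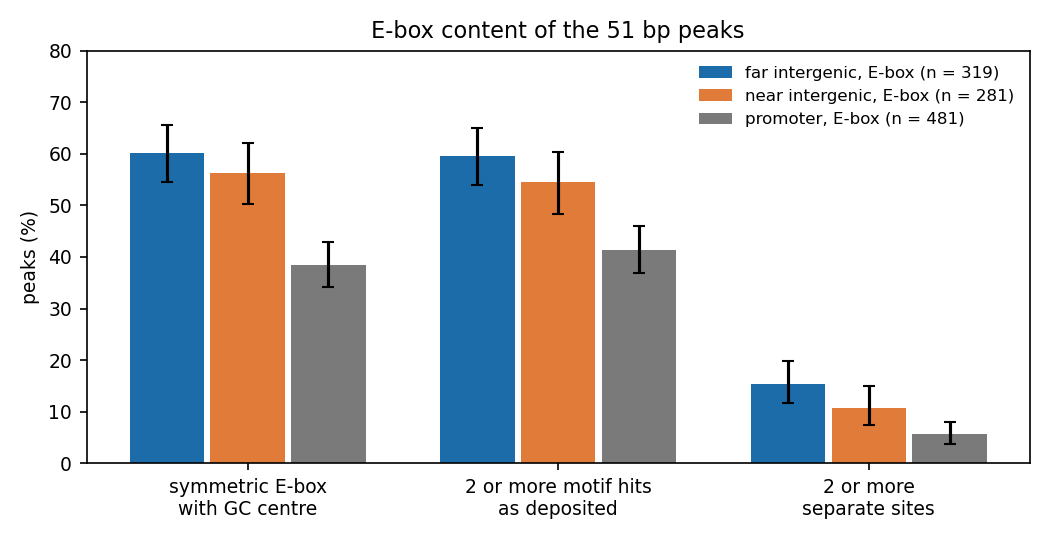
Share of peaks (percent, with 95% exact intervals) that hold the symmetric E-box with a GC centre, 2 or more deposited hits of the E-box motif, and 2 or more separate sites, in 319 far intergenic, 281 near intergenic and 481 promoter E-box peaks. Far intergenic peaks stand at 60.2%, 59.6% and 15.4%, and promoter peaks at 38.5%, 41.4% and 5.61%.

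Several hits in a peak followed the same order. 190 far peaks (59.6%, 53.95 to 64.99) had 2 or more hits, against 153 near intergenic peaks (54.4%; odds ratio 1.23, 0.891 to 1.70, adjusted exact p = 0.551) and 199 promoter peaks (41.4%; odds ratio 2.09, 1.56 to 2.78, adjusted exact p = 6.66e-06). A symmetric word is read on both strands and so gives 2 overlapping hits. With overlapping hits counted as 1 site, a choice made after seeing the data, 49 far peaks (15.4%) had 2 or more sites, against 30 near intergenic (10.7%, adjusted exact p = 0.344) and 27 promoter peaks (5.61%, adjusted exact p = 5.07e-05). The Gm5294 peak is an example, with 2 copies of CAGCTG, and the Ahr peak held 3 E-boxes. The median distance from the peak centre to the closest hit was 8.5 bp in far peaks, 7.5 bp in near intergenic and 9.5 bp in promoter peaks (adjusted permutation p = 0.647 for both differences).

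The bases beside the 203 CAGCTG words of far peaks were uneven. With both strands read as 1, cCAGCTGc made up 25.6% of them, gCAGCTGc 15.3%, aCAGCTGc 14.8%, aCAGCTGg 14.8%, cCAGCTGg 10.3% and aCAGCTGt 8.87%, where lower case gives the flanking base. tCAGCTGa was not seen in far, near or promoter peaks. It reads the same on both strands, and no motif hit of the far peaks had an A after CAGCTG. This word could thus not be their hit, and nothing is read from its absence. The rule shapes this pattern in part, since a peak entered only if 8 bases met the motif. gCAGCTGc was 7.98% of the 163 words in near intergenic peaks and 14.8% of the 182 in promoter peaks, and aCAGCTGt was 6.13% and 3.85% there. These shares are a description, with no test. The commonest hits in far peaks were CAGCTGCT (55 peaks), CAGCTGGC (43), CAGCTGTG (43) and CAGCTGCA (37).

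The list also gives hits of 19 other de novo motifs, and 276 of the 319 far E-box peaks (86.5%) had none of them. Against near intergenic E-box peaks no other motif differed (0 of 19, 0%; 1 had p under 0.05 before adjustment). Against promoter E-box peaks 3 of 19 did (15.8%, two-sided Fisher's exact tests adjusted over 19 motifs). The motif with the commonest word GGAAGCGGAAGT, which holds the GGAA core of ETS factors, was in 1 far peak and 22 promoter peaks (adjusted exact p = 0.00267). The motif with TGGTCCCGCC was in 3 and 24 (adjusted exact p = 0.0115), and the one with GAGTGTCATGTG in 0 and 11 (adjusted exact p = 0.0266).
Against far intergenic peaks without the E-box motif 4 of 19 differed (21.1%), all less frequent in the E-box peaks. Every peak of the list has 1 or more of the 20 motifs, so that a peak without the E-box motif must hold another, and nothing is read from this count. The commonest other motif in far E-box peaks, with the word TGATTGGC, which holds ATTGG, the CCAAT box read on the other strand, was in 21 of them (6.58%), in 19 near intergenic peaks (6.76%) and in 42 promoter peaks (8.73%).

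Short words of other factors, read on either strand, were then looked for in the 200 bp around each of the 319 centres and in the 200 bp around a point 1 kb downstream, each peak being its own control. Of the 26 words that the rule did not use 3 differed (11.5%, two-sided exact McNemar tests adjusted over 26 words), all more frequent at the peak. TTGGCA, the word bound by 1 arm of a nuclear factor I (NFI) dimer, was in 65 windows (20.4%) against 25 controls (7.84%, adjusted exact p = 6.23e-05). GGGCGG, the GC box bound by SP and KLF factors, was in 33 (10.3%) against 10 (3.13%, adjusted exact p = 0.00248). ACAAAG, a word bound by SOX factors, was in 87 (27.3%) against 56 (17.6%, adjusted exact p = 0.0364). The peak windows were richer in G and C, with a median fraction of 0.555 against 0.47, and the part of base composition was not tested. Over all 4215 windows of the list GGGCGG was in 31.5% and ACAAAG in 18.9%. Neither word marked the far E-box peaks alone. ACAAAG was in 21.7% of near intergenic E-box windows, 25.8% of far windows without the motif and 8.73% of promoter E-box windows. GGGCGG was in 12.1%, 18.3% and 53.2% of these. For scale, CAGCTG itself was in 230 windows (72.1%) and 31 controls (9.72%), and in 46.8% over the list. The rule bears on this excess, since a peak entered only with a hit of the motif, and nothing is read from it.

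TTGGCA can share its last 2 bases with CAGCTG, and with every E-box and motif hit masked, an alternative added after seeing the data, it was in 51 windows (15.99%) against 20 (6.27%, adjusted exact p = 0.00122). It was no mark of the far E-box peaks, since it was in 20.3% of near intergenic E-box windows, in 22.5% of far windows without the motif, in 9.36% of promoter E-box windows and in 15.3% of all windows of the list. Of the 65 far windows with TTGGCA, 19 had it within the 51 bp and 41 also had CAGCTG there. The full NFI palindrome, with both arms, was in 0 windows. The set of 3 words depended on the control and the window. ACAAAG did not pass with the control placed 1 kb upstream (19.4% of controls, adjusted exact p = 0.107) or with windows of 100 bp (13.8% against 8.46%, adjusted exact p = 0.223). A second SOX word, ACAATG, was in 60 windows and 36 controls (adjusted exact p = 0.0504) and passed only with windows of 400 bp (adjusted exact p = 0.0327). TTTATNG, a word of posterior Hox proteins, was the least far from the threshold among words less frequent at the peak, in 12 windows against 30 (adjusted exact p = 0.0504). With the upstream control the CACCC box of KLF factors passed as well (43.9% against 32.0%, adjusted exact p = 0.0257), which it did not with the downstream control (36.7%, adjusted exact p = 0.2004). TTTATNG passed with windows of 100 bp, windows of 400 bp and the upstream control (adjusted exact p = 0.0216, 0.0122 and 0.0166). Words for AP-1, TEAD, CTCF, RFX, RBPJ, forkhead and POU factors did not pass in the 200 bp comparison.

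**Figure D4:**
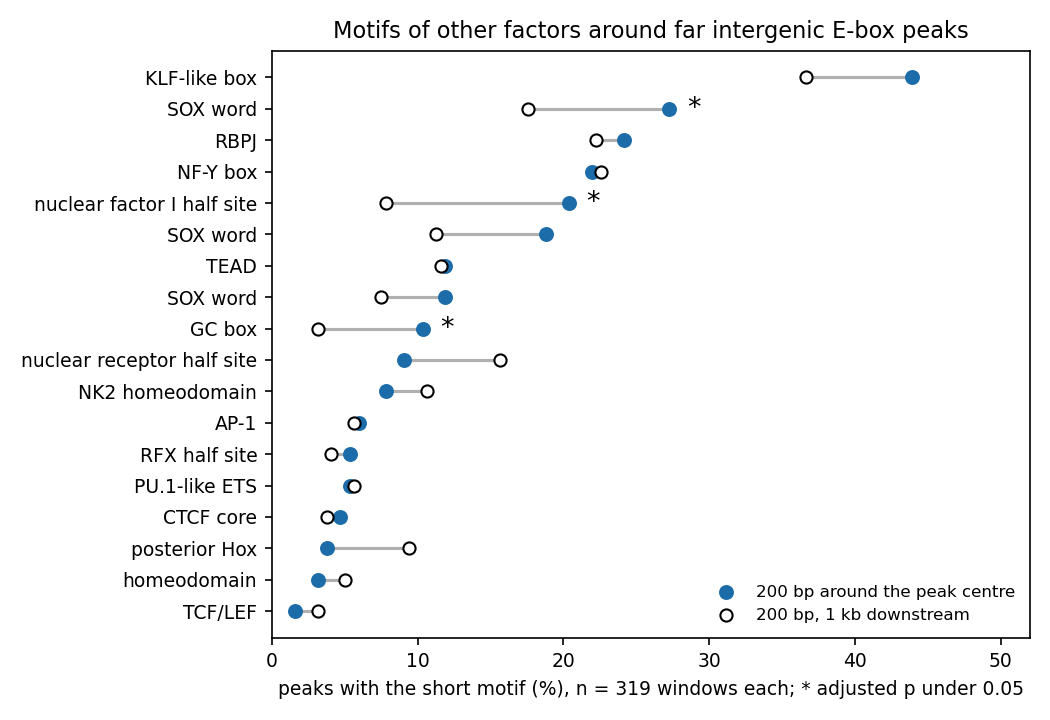
Share of the 319 far intergenic E-box peaks (percent) with a short motif of another factor in 200 bp around the peak centre (filled) and in 200 bp placed 1 kb downstream (open). Motifs in under 10 windows of both kinds are left out, and asterisks mark the 3 with an adjusted p under 0.05: an NFI word (20.4% against 7.84%), the GC box (10.3% against 3.13%) and a SOX word (27.3% against 17.6%).

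The next windows, of 121 bp, show the NFI word beside the E-box, at the highest-scoring peaks that hold both words in such a window. Capitals mark TTGGCA on either strand and CAGCTG.
Rc3h1, chr1:160856038-160856158: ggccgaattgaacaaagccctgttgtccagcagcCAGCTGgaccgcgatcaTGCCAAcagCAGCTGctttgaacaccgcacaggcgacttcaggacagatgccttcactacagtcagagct
Klf15, chr6:90491164-90491284: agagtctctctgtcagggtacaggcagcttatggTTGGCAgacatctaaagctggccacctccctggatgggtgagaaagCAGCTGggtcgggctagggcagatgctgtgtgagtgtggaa
Tle3, chr9:61434157-61434277: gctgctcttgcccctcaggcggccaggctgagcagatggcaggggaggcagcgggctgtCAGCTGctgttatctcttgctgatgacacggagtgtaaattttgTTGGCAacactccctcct
Rc3h1 encodes an RNA-binding ubiquitin ligase, Klf15 a Kruppel-like factor and Tle3 a corepressor of the Groucho family. The Klf15 peak lay inside Klf15 in RefSeq, and inside Aldh1l1 and the noncoding gene Gm45901 in GENCODE.

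The far E-box peaks had 283 nearest genes, of which 35 (12.4%) had 2 or more of them. The most were 3 near 1500009L16Rik, at 184103, 262488 and 338016 bp from its TSS, with scores of 82.2, 7.13 and 13.5. Wnt7b had peaks of 71.0 and 5.61 at 2631 bp from each other, and Kcna6 peaks of 69.6 and 17.8 at 4247 bp. Those of Scarb1, the high-density lipoprotein receptor, scored 48.1 and 10.0 at 1378 bp from each other. Those of Cd180, a surface protein of B cells and macrophages, scored 42.5 and 5.41 and lay 357755 bp apart. Klf13 had scores of 35.7 and 23.3, Zfp36l1, an RNA decay factor, 35.5 and 5.41, Arhgap23 34.2 and 9.11, Foxo6 30.1 and 6.75, and Tspan2 28.3 and 12.9. Genes with 2 such peaks are given here in the order of their highest score, which favours pairs of unequal score. Other pairs were closer in score, such as 12.3 and 8.99 near Thbs4, 9.53 and 7.77 near Spata18, and 8.99 and 8.59 near Zfp608. At Mtss1 the 2 peaks were only 300 bp apart.

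Another Olig2 peak of any kind lay within 25 kb of 69 far E-box peaks (21.6%, 17.2 to 26.6), and another far E-box peak within 25 kb of 48 (15.0%). Far intergenic peaks without the motif had a neighbour in 24 of 120 (20%; odds ratio 1.10, 0.656 to 1.86, adjusted exact p = 1). Near intergenic peaks had one in 113 of 281 (40.2%; odds ratio 0.410, 0.287 to 0.587, adjusted exact p = 6.84e-06) and promoter peaks in 117 of 481 (24.3%, adjusted exact p = 0.647). The distance limit bears on these last comparisons, since a far peak has no peak at its own TSS within 25 kb. Of the 283 genes 27 (9.54%) also had a peak within 1 kb of the TSS. Over genes that occur in only 1 of the groups compared, 24 of 270 (8.89%) did, against 32 of 256 genes of near intergenic peaks (12.5%; odds ratio 0.683, 0.390 to 1.19, adjusted exact p = 0.551), and 25 of 260 (9.62%) against 7 of 86 genes of far peaks without the motif (8.14%, adjusted exact p = 1).

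Centres in repeat sequence were rare, 11 of 319 (3.45%), and did not differ from the other groups (3.20%, 3.33% and 3.33%, adjusted exact p = 1 for each). In all, 4 far E-box peaks lay in an enhancer of the RefSeq annotation (1.25%, 0.343 to 3.18), against 1 near intergenic, 2 far intergenic without the motif and 1 promoter peak (adjusted exact p = 0.647, 1 and 0.327). All 4 enhancers were tested in transgenic mouse embryos, as the VISTA entries in RefSeq record. The one with the Nufip1 peak, the highest of the far E-box peaks, was active in the midbrain (3 of 3 embryos). The one with the Ulk4 peak (score 7.77) was active in the neural tube and in the forebrain (3 of 10 embryos each). That peak lies inside Trak1 in both annotations. The Zfp36l1 peak (35.5) was in an enhancer of the branchial arch (8 of 9 embryos), heart (4 of 9) and other tissue (5 of 9). The Sorl1 peak (24.7) was in one of the limb (4 of 7) and eye (5 of 7).

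Of the 21900 protein-coding genes of RefSeq, 282 (1.29%) were the nearest gene of a far E-box peak and 3082 (14.1%) that of any peak. Gene lists are read against these shares and have no test. Genes with more far intergenic sequence around them offer more room for such peaks, so a density per megabase (Mb) of RefSeq intergenic sequence more than 25 kb from any curated TSS, coding or noncoding, is given too, with a 95% exact Poisson interval that covers counting error only. It counts, by a choice made after seeing the data, only peaks whose centre lies in that sequence, 263 of the 319, each assigned to the gene of the nearest curated TSS. Over all protein-coding genes it was 0.298 per Mb (0.261 to 0.338), from 239 peaks.

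Regulators of the oligodendrocyte lineage had a peak of any kind at 28 of 60 genes (46.7%), and far E-box peaks at 9 of 60 (15.0%), with 12 far E-box peaks. Of these 8 lay in the measured sequence, or 1.2005 per Mb (0.518 to 2.37). Sall3, a zinc finger factor, had the highest at 54.6. Klf13 followed at 35.7, and Zfp536, a zinc finger factor, at 19.98. The Zfp536 peak is 302730 bp from the deposited TSS but inside Zfp536 in RefSeq. Olig2 itself had peaks of 17.1 and 6.75, at 41130 and 33448 bp upstream of its TSS, both with CAGCTG and both overlapping the noncoding gene Gm41492 in RefSeq. It also had a peak within 1 kb of its TSS, at -60 bp, with a score of only 3.71. The highest of its 4 peaks in the list, at 18.5, lay 20858 bp from the TSS and so under the 25 kb limit. Tcf7l2, the Wnt effector needed for oligodendrocyte maturation, had a peak of 17.1. Zeb2, a repressor of BMP signaling targets, had 12.4, Sall1 11.6, the orphan nuclear receptor Nr2f2 10.3, and the chromatin remodeler Chd7 8.59 and 6.17. CAGCTG was in the highest peak of Klf13, Olig2, Tcf7l2 and Chd7 and absent from that of Sall3, Zfp536, Zeb2, Sall1 and Nr2f2. Among oligodendrocyte precursor markers 15 of 30 (50%) had a peak of any kind but only 1 of 30 a far E-box peak, which was Olig2 again. SOX family genes had none (0 of 19), though 4 of 19 had another peak of the list.

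Myelin and mature oligodendrocyte genes had far E-box peaks at 3 of 63 (4.76%), while 32 of 63 (50.8%) had a peak of any kind. Tspan2, a tetraspanin of myelin, had peaks of 28.3 and 12.9 at 42806 and 57433 bp upstream. Septin9, a filament protein, had a peak of 18.7, and Mal, a proteolipid of myelin, one of 8.90. Their 4 peaks gave 2.09 per Mb (0.571 to 5.36).

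Astrocyte markers had far E-box peaks at 4 of 29 (13.8%), with 5 peaks, all in the measured sequence, or 4.63 per Mb (1.50 to 10.8), and 5 of 29 had any peak. They were the GABA transporter Slc6a11 (47.3), the glutamate transporter Slc1a3 (28.4), the connexin Gjb6 (14.7 and 4.51) and glutamine synthetase, Glul (8.59). The Slc1a3 peak lay 27556 bp upstream of its TSS and inside the noncoding gene Gm31340 of RefSeq. The Slc6a11 peak was 155 bp from a RefSeq TSS, and the noncoding gene Gm36023 overlapped it. Glul is also high in oligodendrocytes. Neuron markers had none (0 of 28), with any peak at 3 of 28. Microglia and endothelial markers had 1 of 30, which was Sall1, counted among the regulators of the oligodendrocyte lineage as well.

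**Figure D5:**
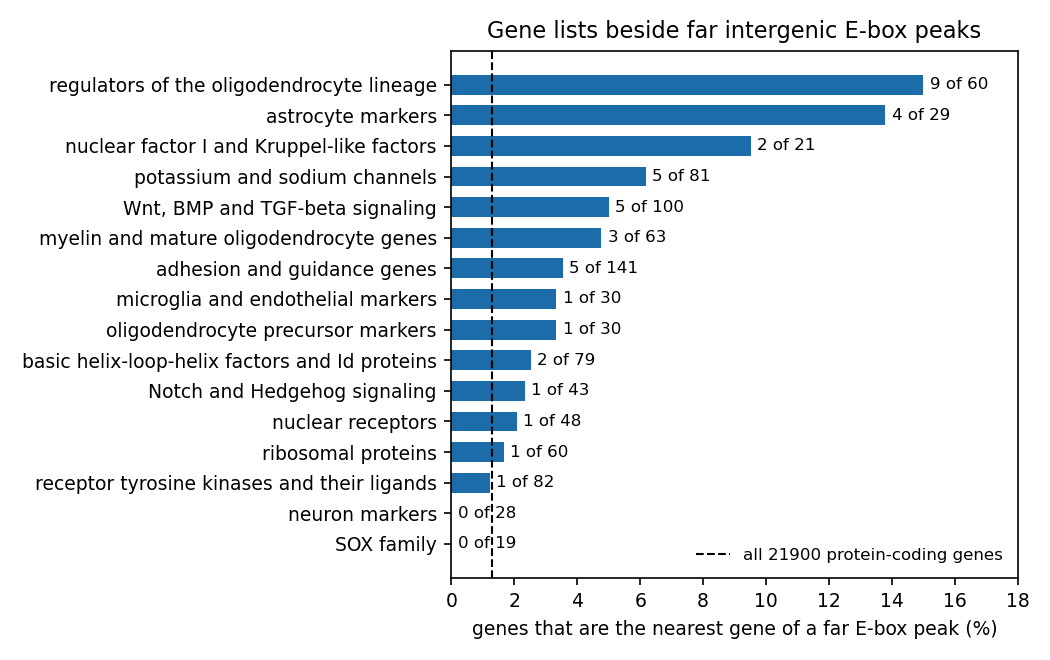
Share of the genes of each of 16 lists (percent) that are the nearest gene of a far intergenic E-box peak, with the counts beside the bars. The dashed line is the share of all 21900 protein-coding genes, 1.29%; regulators of the oligodendrocyte lineage (15.0%) and astrocyte markers (13.8%) have the longest bars, and SOX genes and neuron markers stand at 0.

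Signaling and membrane genes came next. In the Wnt, BMP and TGF-beta list 5 of 100 genes had far E-box peaks, with 1.21 per Mb (0.442 to 2.62). They were Wnt7b (71.0), Tcf7l2 (17.1), the ligand Gdf10 (12.4), Apc, which holds down beta-catenin (11.6), and the receptor Fzd1 (8.54). Of the Notch and Hedgehog genes 1 of 43 had one, Maml3, a coactivator of Notch (57.9). Of the receptor tyrosine kinases and their ligands 1 of 82 did (1.22%), a share near that of all genes. It was Vegfa (21.4), whose peak held CAGCTG at 2 places. In the list of potassium and sodium channels 5 of 81 genes (6.17%) had 7 peaks, 6 of them in the measured sequence, or 0.999 per Mb (0.366 to 2.17). Kcna6 led with 69.6, Kcnj6, an inward rectifier, had 27.5 and 8.31, Kcna2 20.2, Kcna5 16 and Kcnk1, a leak channel, 4.26. Kcna5 and Kcna6 are neighbours on chromosome 6, with Kcna1 between them.

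Adhesion and guidance genes had far E-box peaks at 5 of 141 (3.55%). This list has much far intergenic sequence, 40.5 Mb, and the 3 peaks in it came to 0.0740 per Mb (0.0153 to 0.216), below the density over all genes, while its share of genes was above that of all genes. The 5 were Sema6d (23.0), Ncam1 (21.4), Lingo1, an inhibitor of myelination (13.6), Nlgn1 (10.3) and the cadherin Cdh11 (8.99). In the other lists, bHLH factors and Id proteins had 2 of 79 (Olig2 and the dioxin receptor Ahr, 16.1), nuclear factor I and Kruppel-like factors 2 of 21 (Klf15, 45.7, and Klf13), nuclear receptors 1 of 48 (Nr2f2), and ribosomal proteins 1 of 60 (Rps24, 57.6, at 288577 bp from its TSS). A gene in several lists counts in each.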

How the data were processed

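The deposited list holds Olig2 peaks of whole spinal cord. The authors aligned the pooled reads with BWA to mm10 (GRCm38), called peaks with MACS2 against the Input control, and annotated and searched them for motifs with HOMER, through a BaseSpace application. The peak score, deposited by the authors, has no named scale, the GC fraction is that of the 51 bp as deposited, and the other deposited value is the distance to the TSS in bp. Read depth per peak is not given in the sources used here. The Input library was not analysed here on its own.

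Members, comparison groups, gene lists and words were chosen with earlier results of these data known. Deposited GC fractions matched GRCm38 for 4215 of 4215 peaks, and 7177 of 7177 motif hits were found in place. 9 gene names that had turned into dates were restored by Entrez number. Tests (Python 3.11.15, numpy 2.4.6, scipy 1.17.1, pysam 0.24.0) were two-sided: permutation of the median (100000), Fisher's exact, exact binomial and exact McNemar tests, with Benjamini-Hochberg adjustment and a threshold of 0.05. They were tested on simulated data. Peaks of 1 list are the units, so p-values measure the spread between peaks, not between mice, and intervals cover counting error only. Far intergenic sequence and the peaks in it were measured on a 1 kb grid in RefSeq. Genes named were those of the 10 highest scores, up to 10 genes with the most members, the 3 farthest peaks, the peaks beside the limit, those in enhancers, up to 4 genes of each list with the highest score, and genes the study discusses; others were chosen after their values were seen. Alternatives were other distance limits, a minimum score, 1 peak per 500 bp, other windows and controls. A second sheet with 5 peaks that repeat the main sheet was not used.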

Additional observations from a re-analysis of the deposited data

How the results depend on the processing

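No paired analysis was possible because the peaks come from 1 pooled list without replicates, and no replicate could be left out. The list has no depth, so small differences may not be detectable. Of the alternatives tried, 103 kept their side of the threshold with no change of sign, or stayed within 1.5 times the count. In 15 the difference changed sign, and neither value passed the threshold in any of them. With the limit at 10000 bp, the difference in percentage points was -0.504 for 2 or more hits against near intergenic peaks, -0.343 and -0.0726 for centres in repeats against near intergenic and promoter peaks, -0.597 and 1.71 for a neighbour within 25 kb against far peaks without the motif and promoter peaks, and -2.96 for genes with a TSS peak against those of far peaks without the motif. At 50000 bp it was -1.50 for CAGCTG against near intergenic peaks, -0.130 and -0.0832 for repeats against near intergenic and promoter peaks, 0.431 for enhancers and -2.94 for a neighbour, both against far peaks without the motif, and the upstream share was 48.1%. With a score of at least 10 it was 0.419 and -0.349 for the median score against near intergenic peaks and far peaks without the motif, and -5.36 points for a neighbour against the latter. With the limit at 50000 and 100000 bp, 185 and 92 peaks met the rule. The upstream share was 59.0% at a limit of 10000 bp. Words less frequent around the peaks numbered 0 at first and 1 with windows of 100 bp, of 400 bp or the upstream control. With a score of at least 10, fewer peaks were tested, and other motifs differed from far peaks without the E-box motif in 2 cases (4 before) and from promoter peaks in 1 (3 before). In windows of 200 bp, 7 E-box forms differed from promoter peaks, against 4 in the 51 bp; the cause was not tested.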
